A study of Mus musculus with 59 samples.

Results

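The 10 genes described here encode the main parts of antigen presentation by the major histocompatibility complex (MHC): H2-K1, H2-D1, B2m, Tap1, Tap2 and Nlrc5 for class I, and Ciita, H2-Aa, H2-Ab1 and Cd74 for class II. They were chosen by symbol, and all 10 were found among the 47643 genes of the table. Each gene was measured by RNA-seq in 59 muscle libraries as TPM, an abundance per transcript length that is scaled to the same total in every library.

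The muscles came from female athymic nude mice of the NCI Ath/nude strain, 4 months old, all of which carried a human melanoma grown from patient tissue. The melanoma was either cachectic, a tumour that causes loss of muscle mass, or non-cachectic. Diaphragms were taken from mice that also received injections of rFibcd1, the recombinant form of a myokine whose effect on muscle fibre atrophy was under study, or of a mock solution of albumin. Mice with the cachectic melanoma gave 10 mock and 10 rFibcd1 diaphragms, and those with the non-cachectic one gave 9 and 10. Tibialis anterior, a fast limb muscle, and soleus, a slow one, came from mice with the cachectic (n = 5 for each muscle) or the non-cachectic melanoma (n = 5 for each muscle), and no injection is given for them. There was no group without a tumour. Athymic mice have no functional thymus and very few mature T cells, while their B cells, macrophages, dendritic cells and natural killer cells remain.

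Class I molecules are made by nearly all nucleated cells and show peptides from inside the cell to CD8 T cells. A heavy chain (H2-K1, H2-D1) pairs with beta-2-microglobulin (B2m), and the peptides reach it through a transporter of 2 subunits (Tap1, Tap2). Class II molecules, of an alpha chain (H2-Aa) and a beta chain (H2-Ab1) that are held by the invariant chain Cd74 until they are loaded, are made mostly by B cells, dendritic cells and macrophages. Nlrc5 and Ciita are the transactivators of the class I and class II genes, and interferon-gamma raises both sets. Muscle fibres themselves express little class I and, at rest, almost no class II.

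Of the 10 genes, 6 lie on chromosome 17 of GRCm38 within 1.27 Mb: H2-K1 (17:33996017-34000347), Tap1 (17:34187553-34197225), Tap2 (17:34203527-34216321), H2-Ab1 (17:34257689-34269419), H2-Aa (17:34282744-34287823) and H2-D1 (17:35262730-35267499), in GENCODE M21. B2m (2:122147686-122153083), Nlrc5 (8:94434356-94527272) and Ciita (16:10480059-10528418) lie elsewhere.

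Promoter sequences from RefSeq were at hand for 5 of the 10, and they are shown because class I and class II genes are known to share a promoter module. Each runs from 250 bases before the gene's start in RefSeq to 30 bases after it, 5′ to 3′ on the gene's own strand in GRCm38.p6: chr17:34000318-34000597 (minus strand) for H2-K1, chr17:35262844-35263123 (plus) for H2-D1, chr2:122147437-122147716 (plus) for B2m, chr17:34187306-34187585 (plus) for Tap1 and chr17:34287794-34288073 (minus) for H2-Aa. For H2-D1 this start lies inside the GENCODE M21 gene, so the whole window lies after the GENCODE start (17:35262730). Capitals mark, on either strand, TGACG (the core of the X2 box, read by factors of the CREB family), GATTGG (the Y box, read by NF-Y) and a pair of GAAA with 2 bases between them (the core of the interferon-stimulated response element, read by IRF factors).
H2-K1: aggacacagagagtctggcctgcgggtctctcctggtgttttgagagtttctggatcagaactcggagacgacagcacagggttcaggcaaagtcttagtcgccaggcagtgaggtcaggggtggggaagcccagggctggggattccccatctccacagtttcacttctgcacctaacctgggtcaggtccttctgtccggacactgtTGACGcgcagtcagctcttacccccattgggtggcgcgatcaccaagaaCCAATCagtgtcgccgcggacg
H2-D1: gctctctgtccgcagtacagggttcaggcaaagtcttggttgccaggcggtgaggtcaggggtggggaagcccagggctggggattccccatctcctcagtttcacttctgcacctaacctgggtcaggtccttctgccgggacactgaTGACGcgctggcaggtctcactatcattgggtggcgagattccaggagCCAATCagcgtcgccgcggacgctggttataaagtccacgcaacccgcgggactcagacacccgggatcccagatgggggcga
B2m: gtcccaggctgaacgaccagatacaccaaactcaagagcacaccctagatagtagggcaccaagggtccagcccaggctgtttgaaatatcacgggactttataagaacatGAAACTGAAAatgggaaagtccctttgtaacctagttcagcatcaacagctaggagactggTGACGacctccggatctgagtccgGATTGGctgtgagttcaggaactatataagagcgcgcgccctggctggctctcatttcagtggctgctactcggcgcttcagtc
Tap1: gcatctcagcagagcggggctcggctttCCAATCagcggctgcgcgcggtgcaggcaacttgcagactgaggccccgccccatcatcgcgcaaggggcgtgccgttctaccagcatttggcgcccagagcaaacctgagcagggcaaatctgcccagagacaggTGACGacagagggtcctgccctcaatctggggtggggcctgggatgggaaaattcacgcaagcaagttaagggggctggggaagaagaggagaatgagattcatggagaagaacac
H2-Aa: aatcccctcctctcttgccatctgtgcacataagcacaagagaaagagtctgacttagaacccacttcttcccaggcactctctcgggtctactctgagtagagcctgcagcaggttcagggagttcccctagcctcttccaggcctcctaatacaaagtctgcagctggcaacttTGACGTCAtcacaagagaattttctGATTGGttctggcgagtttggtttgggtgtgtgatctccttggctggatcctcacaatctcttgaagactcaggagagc

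Counted over the whole 300 bases of each RefSeq window, all 5 held TGACG and GATTGG, which 21.0% and 16.6% of 27025 RefSeq promoters of 300 bases hold. Their order was not the same: in the Tap1 window GATTGG (bases 29 to 34) came before TGACG (bases 165 to 169). In the other 4 it followed the first TGACG. Only the B2m window held the spaced GAAA pair, which is in 3.49% of all promoters. Variants of the pair were not searched for, so its absence from the other windows holds only for these exact letters. In the H2-Aa window TGACG lay on both strands at once, overlapping itself. Of 2 further motifs searched on both strands, an NF-kappaB core (GGGA and CC with 4 bases between them, in 20.5% of all promoters) was in 4 of the 5 windows and an X1 core (AG, AC and ATG, each 2 bases apart, in 3.12%) in none. The windows of H2-K1 and H2-D1 matched at 90.4% of 228 aligned positions. These motifs were picked after the sequences had been seen, and a match is a run of letters and not a bound site.

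Levels differed widely among the members. B2m was the highest, at 775 TPM on average over the 59 libraries, of which 39 are diaphragms, followed by Cd74 (311 TPM), H2-D1 (270 TPM), H2-K1 (161 TPM), H2-Aa (115 TPM) and H2-Ab1 (90.2 TPM). Tap2 (18.0 TPM) and Tap1 (9.74 TPM) were lower, and the transactivators Nlrc5 (4.49 TPM) and Ciita (2.88 TPM) were lowest. The order was not the same in the limb muscles: in non-cachectic tibialis anterior Cd74 averaged 28.1 TPM, below H2-D1 at 60.4 TPM and H2-K1 at 36.5 TPM, and in non-cachectic soleus 37.7 TPM, below 122 and 69.5 TPM. The ratio of the class II partners H2-Aa to H2-Ab1 ranged from 0.891 to 1.60 and that of the class I heavy chains H2-D1 to H2-K1 from 1.17 to 2.41 over all libraries. The ratio of class II chains (H2-Aa plus H2-Ab1) to class I heavy chains (H2-K1 plus H2-D1) had a median of 0.455 in diaphragm, 0.161 in tibialis anterior and 0.109 in soleus. H2 genes differ between mouse strains, and the effect of such differences on mapping was not tested. Of the 100-base stretches of the annotated H2-D1 transcripts, 4.09% also occurred in other genes, mostly H2-Q1, so H2-D1 reads may be divided among them. No stretch of the other 9 members was shared.

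Library features moved with the groups and bear on every comparison below. Libraries fell into 2 states by the level of the pseudogene Pcna-ps2, which was 5.60 to 22.8 TPM in 36 libraries (high state) and 0 to 0.428 TPM in 23 (low state). In the limb muscles every cachectic library was in the high state and every non-cachectic one in the low state, so in those muscles the melanoma and the state of a library cannot be told apart. In diaphragm the high state held 9 of 10 cachectic mock, 3 of 9 non-cachectic mock, 8 of 10 cachectic rFibcd1 and 6 of 10 non-cachectic rFibcd1 libraries. What the state is was not tested. The summed level of 9 skeletal muscle markers was 36448 to 89787 TPM in every library, and mitochondrial transcripts took 30.5% to 48.5% of TPM as group means. This share was lower with the cachectic melanoma, at 38.1% against 47.5% in mock diaphragm, 37.6% against 43.9% in rFibcd1 diaphragm, 38.8% against 48.5% in tibialis anterior and 30.5% against 41.1% in soleus, and as TPM has a fixed total, a lower mitochondrial share leaves more of it to other genes. Its part in the melanoma comparisons was not tested. Sequencing depth is unknown because TPM does not keep it, and 16835 to 18815 genes were above 0 as group means.

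**Figure D1:**
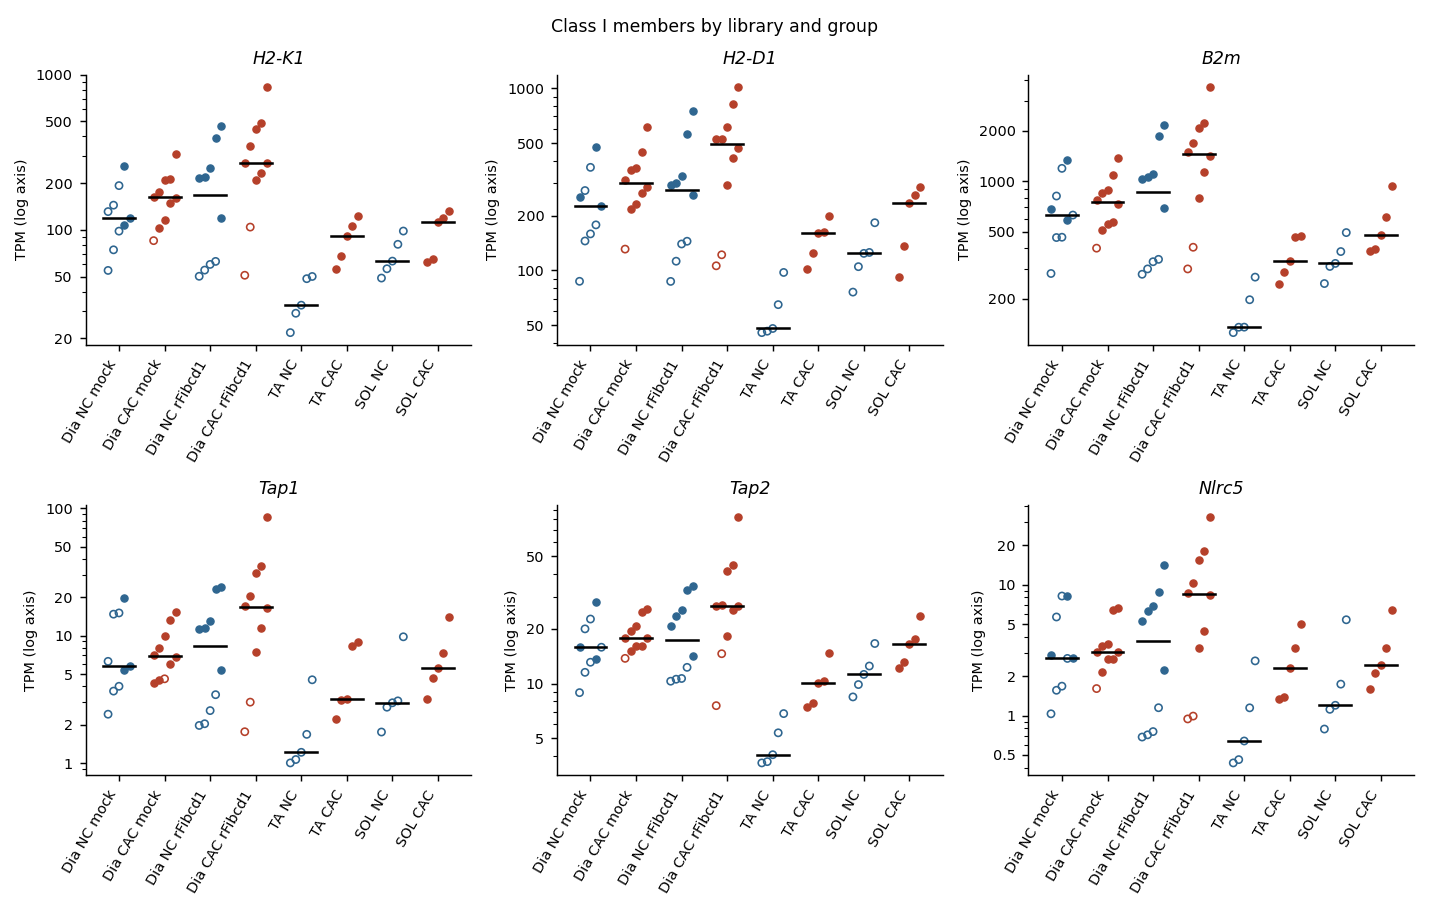
Levels of the 6 class I members (TPM, log axis) in every library of the 8 groups of diaphragm (Dia), tibialis anterior (TA) and soleus (SOL). Red points are cachectic (CAC), blue points non-cachectic (NC), filled points high-state and open points low-state libraries, and the black bar is the group median. In tibialis anterior the cachectic libraries of H2-K1, H2-D1 and Tap2 lie above all non-cachectic ones, and the diaphragm groups overlap for every gene.

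The first question was which muscle carried the most antigen presentation transcripts, in mice with the non-cachectic melanoma and without rFibcd1. On average all 10 members were higher in diaphragm than in either limb muscle. By limma 10 of 10 were called against tibialis anterior, beside 64.0% of all genes called higher, and 7 of 10 against soleus, beside 16.8%, with larger fold changes for class II than for class I chains. With the Dunn rank test, 10 of 10 were called against tibialis anterior (51.0% of all genes), and 0 of 10 against soleus (lowest adjusted p 0.0523; 8.73% of all genes called). Class II levels in diaphragm were several times those of either limb muscle, whereas class I heavy chains differed by 1.76-fold to 3.68-fold. Tibialis anterior had the lowest median of the 3 muscles for all 10 members.

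H2-Aa, the class II alpha chain, was 23.2 to 211 TPM with a median of 78.0 TPM in the 9 non-cachectic mock diaphragms. In tibialis anterior its 5 values were 6.83, 6.51, 4.76, 24.3 and 7.37 TPM, and in soleus they were 14.9, 8.13, 9.87, 22.7 and 11.2 TPM. All soleus values were below the lowest diaphragm value, and 1 tibialis anterior library, at 24.3 TPM, was just above it. H2-Aa was higher in diaphragm than in tibialis anterior by a log2 fold change of 3.17 ± 0.60 (SE; 9.00-fold on the TPM + 1 scale; limma, adjusted p = 2e-05) and than in soleus by 2.63 ± 0.60 (6.21-fold, adjusted p = 0.000693). H2-Ab1, its beta chain partner, had a mean of 76.5 ± 45.5 TPM in diaphragm (SD, n = 9), of 8.22 ± 6.82 TPM in tibialis anterior (SD, n = 5) and of 11.8 ± 7.26 TPM in soleus (SD, n = 5). Its differences were 3.07 ± 0.58 and 2.52 ± 0.58 (limma, adjusted p = 2.03e-05 and 0.000772). Cd74, the invariant chain, which is encoded on chromosome 18, averaged 258 ± 141 TPM (SD, n = 9) in diaphragm, 28.1 ± 20.6 TPM (SD, n = 5) in tibialis anterior and 37.7 ± 19.4 TPM (SD, n = 5) in soleus. Its log2 differences were 3.16 ± 0.58 and 2.67 ± 0.58 (limma, adjusted p = 1.31e-05 and 0.000414). The transactivator Ciita averaged 2.09 ± 1.34 TPM (SD, n = 9) in diaphragm and was at 0.560 TPM or less in all 10 non-cachectic limb libraries, a log2 difference of 1.30 ± 0.33 from tibialis anterior and of 1.20 ± 0.33 from soleus (limma, adjusted p = 0.000737 and 0.00382).

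Class I members had the same order of medians. H2-K1 was 54.9 to 257 TPM in diaphragm with a median of 120 TPM, against 21.8, 29.1, 32.8, 50.2 and 48.5 TPM in tibialis anterior and 56.2, 49.0, 63.0, 98.4 and 80.8 TPM in soleus. Diaphragm and tibialis anterior did not overlap for H2-K1, and diaphragm and soleus did. The log2 difference was 1.75 ± 0.29 from tibialis anterior (3.36-fold, limma, adjusted p = 2.35e-06) and 0.82 ± 0.29 from soleus (1.76-fold, adjusted p = 0.0243). B2m, the light chain of class I, had a mean of 717 ± 347 TPM in diaphragm (SD, n = 9), of 172 ± 60.9 TPM in tibialis anterior (SD, n = 5) and of 352 ± 93.4 TPM in soleus (SD, n = 5). The peptide transporter subunits and Nlrc5 were higher in diaphragm than in tibialis anterior, by 1.58 ± 0.39 for Tap1, 1.58 ± 0.20 for Tap2 and 1.13 ± 0.34 for Nlrc5 (log2, limma, adjusted p = 0.000484, 1.2e-08 and 0.00339). Their differences from soleus, 0.84 ± 0.39, 0.43 ± 0.20 and 0.64 ± 0.34, did not pass (limma, adjusted p = 0.0835, 0.0791 and 0.129). Tibialis anterior was below soleus for H2-K1 (-0.93 ± 0.33), H2-D1 (-1.02 ± 0.36), B2m (-1.05 ± 0.33) and Tap2 (-1.15 ± 0.22; limma, adjusted p = 0.0122, 0.0133, 0.00528 and 3.51e-05). The Dunn test called 0 of 10 members here (lowest adjusted p 0.158), beside 37.0% of all genes, and with the number in the column name as a replicate block, added after the data had been seen, limma called 5, Tap1 being the one gained (adjusted p = 0.0303), beside 76.1% of all genes. H2-Aa, H2-Ab1 and Cd74 differed between the limb muscles by -0.54 to -0.49 with SEs of 0.66 to 0.68, Ciita by -0.09 ± 0.37, and none of these was called (limma, adjusted p of 0.477 to 0.845). With the same block all 10 members were called in diaphragm against soleus, beside 49.9% of all genes. Without it the calls of H2-K1 and H2-D1 against soleus rested on single libraries. H2-K1 was not called without the diaphragm library at 257 TPM or without any 1 of the soleus libraries at 56.2, 49.0 and 63.0 TPM, and H2-D1 was not called without the diaphragm library at 475 or 368 TPM or the soleus library at 75.9 or 105 TPM (adjusted p of 0.0518 to 0.105).

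Muscles differed widely in many genes, and the counts have to be read against that. Of 13501 genes tested across muscles, 64.0% were called higher in diaphragm than in tibialis anterior (72.5% in either direction) and 16.8% higher in diaphragm than in soleus (38.8% in either direction). Tibialis anterior was lower than soleus in 63.9% of genes (69.5% in either direction). The median log2 difference over all genes was 0.44, -0.04 and -0.47 for these 3 comparisons, against 1.81, 0.89 and -0.64 over the 10 members. Where libraries were scaled by median ratios instead, which sets the median gene near 0, the members remained higher in diaphragm by 0.84 to 2.65 over tibialis anterior (10 of 10 called, beside 34.6% of all genes higher and 70.9% in either direction). For tibialis anterior against soleus, 1 of 10 was then called (Tap2, -0.61 ± 0.22, limma, adjusted p = 0.0173), beside 25.1% of all genes lower and 53.3% in either direction, and the class II members stood at 0.01 to 0.12. The mock diaphragm mice had been injected and the limb muscles came from mice with no stated injection, so muscle and injection cannot be told apart.

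Genes around the members in the same pathway were listed too, beside the 64.0% of all genes called higher in diaphragm than in tibialis anterior and 16.8% higher than in soleus. Of the other class II genes 9 of 10 tested were higher in diaphragm than in tibialis anterior, among them H2-Eb1 (3.19 ± 0.60), Ctss (3.22 ± 0.46), a cathepsin that trims the invariant chain, and the polymorphic pseudogene H2-Ea-ps (3.65 ± 0.65). Of the genes of class I peptide supply and loading, 11 of 11 were higher, among them the immunoproteasome subunits Psmb8 (1.63 ± 0.33) and Psmb10 (1.59 ± 0.23). Macrophage and dendritic cell markers were also highest in diaphragm. Summed B cell markers, which in tibialis anterior were mostly Ighm, did not follow the order of the class II members, while the B cell marker Cd79a did. All 11 macrophage markers tested, of 12 listed, were higher in diaphragm than in tibialis anterior and 10 of 11 higher than in soleus, and their summed level was 240 to 823 TPM in non-cachectic mock diaphragm, 32.4 to 65.9 TPM in tibialis anterior and 118 to 160 TPM in soleus. Of 8 B cell markers 6 were higher than in tibialis anterior, and Cd79a, part of the B cell receptor, averaged 7.20 TPM in diaphragm against 0.261 TPM in tibialis anterior and 0.394 TPM in soleus. Ighm, the heavy chain of IgM, was not among the 6 (-0.56 ± 0.78 for diaphragm against tibialis anterior, not called by limma, unadjusted p = 0.481) and was higher in tibialis anterior than in soleus (4.08 ± 0.89). Summed B cell markers were 18.9 to 625 TPM (median 58.4 TPM) in diaphragm, 42.6 to 199 TPM (median 91.5 TPM) in tibialis anterior and 4.77 to 8.78 TPM (median 6.14 TPM) in soleus. Of 10 dendritic cell markers 5 were tested and 5 were higher. Summed dendritic cell markers were 8.19 to 24.6 TPM, 2.24 to 3.43 TPM and 4.44 to 6.87 TPM in the same order. Against tibialis anterior, all 6 T cell markers tested, among them Trbc1 (1.06 ± 0.33) and Cd3g (0.89 ± 0.32), all 3 natural killer cell markers, among them Nkg7 (1.18 ± 0.42) and Gzma (1.14 ± 0.28), and 9 of 12 interferon-gamma targets, led by Gbp2 (2.45 ± 0.43), were higher in diaphragm. Against soleus 3 of 6, 2 of 3 and 1 of 12 were. Also against soleus, 6 of 10 other class II genes were higher and Lgmn was lower (-0.45 ± 0.14), and 3 of 13 other class I heavy chains were higher and Mr1 was lower (-0.58 ± 0.11). All 5 endothelial markers were higher in diaphragm than in tibialis anterior, among them Kdr (1.28 ± 0.15) and Emcn (0.98 ± 0.17). In bulk muscle, fewer cells of a type and less RNA per cell cannot be told apart, and the part of these cells in the members' levels was not tested.

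**Figure D2:**
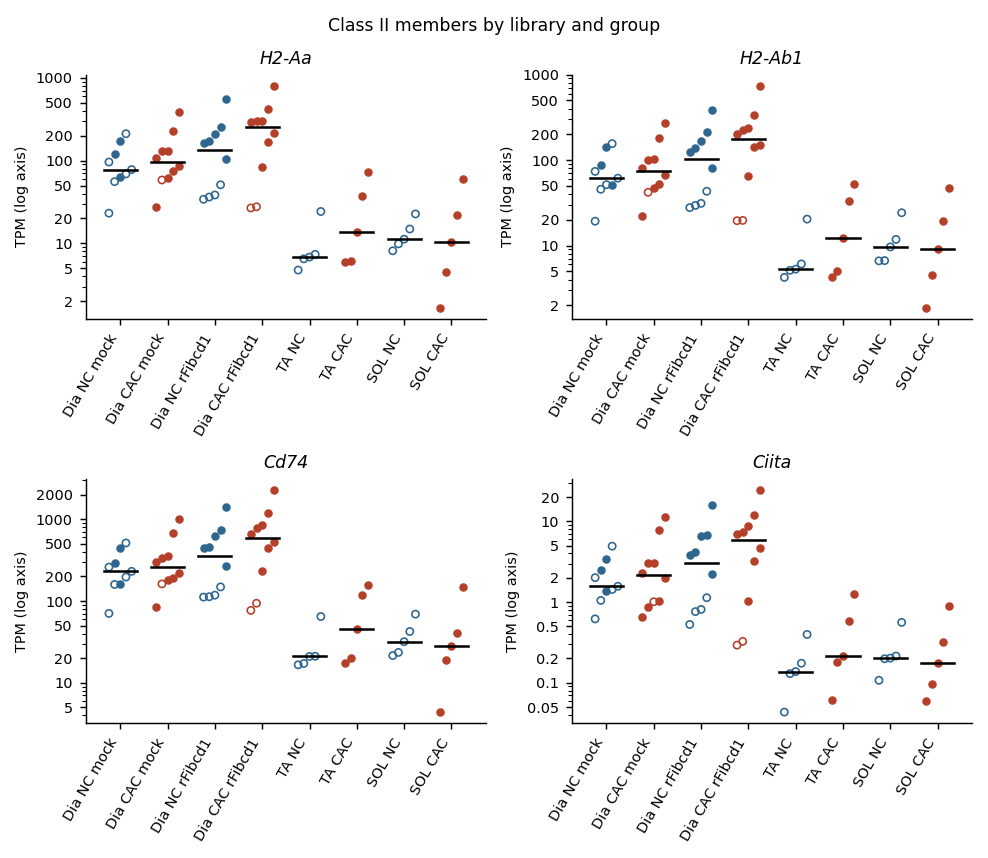
Levels of the 4 class II members (TPM, log axis) in every library of the 8 groups, with colours and symbols as in the plot of class I levels. The diaphragm libraries lie above most limb libraries for all 4 genes, and H2-Aa ranges from 1.67 TPM in a cachectic soleus to 806 TPM in a cachectic rFibcd1 diaphragm.

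The next question was whether the cachectic melanoma went with other levels than the non-cachectic one. In tibialis anterior the 6 class I members were all higher with the cachectic melanoma, by 1.78-fold to 2.50-fold. The 3 class II members tested were 1.91-fold to 2.01-fold higher on average but spread too widely to pass, and Ciita was below the filter. H2-K1 was 123, 67.8, 91.5, 56.0 and 107 TPM in the cachectic libraries and 21.8, 29.1, 32.8, 50.2 and 48.5 TPM in the non-cachectic ones, and the groups did not overlap. Its log2 fold change was 1.27 ± 0.26 (SE; limma, adjusted p = 0.00321). H2-D1, the second heavy chain, was 160, 124, 162, 102 and 200 TPM against 46.3, 45.5, 47.9, 97.3 and 64.8 TPM. Its groups did not overlap either, and its log2 fold change was 1.32 ± 0.23 (limma, adjusted p = 0.00156).

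B2m was 463, 288, 334, 246 and 475 TPM in cachectic and 126, 135, 135, 269 and 197 TPM in non-cachectic tibialis anterior. The highest non-cachectic library lay above the lowest cachectic one, and the log2 fold change was 1.08 ± 0.24 (limma, adjusted p = 0.0047). Tap2 was 10.4, 7.47, 10.0, 7.84 and 14.8 TPM against 3.67, 4.07, 3.73, 6.84 and 5.37 TPM. Its groups did not overlap, with a log2 fold change of 0.95 ± 0.20 (limma, adjusted p = 0.00359). Tap1 was 8.85, 3.18, 3.15, 2.20 and 8.37 TPM against 1.00, 1.07, 1.21, 4.50 and 1.68 TPM. The non-cachectic library at 4.50 TPM exceeded 3 of the 5 cachectic ones, and the log2 fold change was 1.05 ± 0.36 (limma, adjusted p = 0.0262). Nlrc5, the class I transactivator, was 3.26, 1.34, 2.32, 1.39 and 5.00 TPM against 0.434, 0.460, 0.639, 2.62 and 1.15 TPM, again with 1 high non-cachectic library. Its log2 fold change was 0.83 ± 0.30 (limma, adjusted p = 0.0333). The calls of Tap1 and Nlrc5 were lost without any 1 of 2 cachectic libraries (Tap1 at 8.85 or 8.37 TPM) or 3 non-cachectic ones (Tap1 at 1.00, 1.07 or 1.21 TPM), with adjusted p of 0.0521 to 0.0772. Both were also not called by the Dunn test (adjusted p = 0.0665 for each; 66.1% of all genes called) or by limma without the filter on low values (0.059 and 0.0703; 34.1% of all genes called).

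The class II members split the cachectic tibialis anterior libraries. H2-Aa was 73.1 and 37.2 TPM in 2 of them and 6.00, 6.08 and 13.9 TPM in the other 3, against 6.83, 6.51, 4.76, 24.3 and 7.37 TPM in the non-cachectic libraries. The groups overlapped, with a log2 fold change of 0.97 ± 0.63 (limma, adjusted p = 0.184). H2-Ab1 (0.93 ± 0.62) and Cd74 (1.01 ± 0.59) gave adjusted p of 0.197 and 0.147 in the same limma fit. Ciita was 0.0617 to 1.25 TPM in the cachectic and 0.0433 to 0.397 TPM in the non-cachectic libraries.

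Most genes were called in this muscle: 56.4% of 11105 tested were higher with the cachectic melanoma (60.2% in either direction), and 49.1% had groups that did not overlap with the cachectic libraries higher. Against that background 6 of 9 members tested were called and 3 of 9 did not overlap, and the median over the 9 members was 1.01 against 0.41 over all genes. Scaling by median ratios moved the median of all genes to about 0 and left 1 member called, H2-D1 (0.82 ± 0.25, limma, adjusted p = 0.0242, with 18.4% of all genes higher and 40.3% in either direction). H2-K1 was then at 0.78 ± 0.29 (adjusted p = 0.0525), and the 9 members ranged from 0.51 to 0.82. 

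Related genes in tibialis anterior were called as follows, beside the 56.4% of all genes called higher. Of the other class I heavy chains 8 of 11 tested were higher, with H2-T23 (1.12 ± 0.33), H2-Q1 (1.09 ± 0.21) and H2-Q4 (1.09 ± 0.32) highest. Of the peptide supply and loading genes 9 of 11 were higher, among them Psmb8 (1.17 ± 0.30), Calr (1.05 ± 0.33), a chaperone of the loading complex, and tapasin, Tapbp (0.85 ± 0.14). Of 6 other class II genes tested 2 were higher, the proteases Ctss (1.92 ± 0.51) and Lgmn (1.33 ± 0.13), and H2-Eb1 (0.97 ± 0.65), H2-Ea-ps (1.43 ± 0.61), H2-DMa (0.62 ± 0.31) and Ifi30 (1.16 ± 0.52) were not called. Of the regulators of MHC genes 12 of 15 were higher, among them Irf1 (1.13 ± 0.29), Rfx5 (1.05 ± 0.12), a subunit of the factor that binds the X box, and the interferon-gamma receptor subunit Ifngr1 (0.92 ± 0.17). Of 9 interferon-gamma target genes tested 5 were higher, a share near that of all genes, with the largest changes in the GTPases Gbp2 (1.98 ± 0.43), Igtp (1.96 ± 0.74) and Iigp1 (1.68 ± 0.64). All 8 macrophage markers tested were higher, by a median of 1.57. The summed level of the 11 macrophage markers in the table was 55.0 to 378 TPM in cachectic and 32.4 to 65.9 TPM in non-cachectic libraries. Of 5 endothelial markers Tek (0.95 ± 0.13), Pecam1 (0.92 ± 0.20) and Emcn (0.57 ± 0.23) were higher and Kdr was lower (-0.49 ± 0.19), and their summed level was 108 to 226 TPM in cachectic and 84.7 to 117 TPM in non-cachectic libraries. The B cell marker Ighm was lower (-3.21 ± 0.50), and Cd79a stood at 0.294 and 0.261 TPM on average in the 2 groups. No T cell or natural killer cell marker passed the filter, and 3 of 10 T cell markers were listed at 0 in all 5 non-cachectic libraries. Summed T cell markers were 0.448 to 16.4 TPM in cachectic and 0.0478 to 0.424 TPM in non-cachectic libraries, without overlap, summed natural killer cell markers 0.488 to 6.91 and 0.323 to 1.07 TPM, and summed dendritic cell markers 2.97 to 18.3 and 2.24 to 3.43 TPM. The part of all these cell types in the levels of the members was not tested.

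In soleus no member was called by limma, and 2 of 9 tested, B2m and Tap2, had an unadjusted p under 0.05, as had 38.4% of all genes. All 6 class I members were higher on average with the cachectic melanoma, by 0.46 to 0.69 on the log2 scale. B2m was 395, 613, 480, 383 and 933 TPM in cachectic and 311, 246, 324, 495 and 381 TPM in non-cachectic soleus, which overlapped, and its log2 fold change was 0.63 ± 0.25 (limma, adjusted p = 0.0845). H2-D1 was 92.0, 234, 259, 136 and 287 TPM against 124, 75.9, 105, 183 and 125 TPM. The lowest cachectic library lay inside the non-cachectic range, and the log2 fold change was 0.65 ± 0.31 (limma, adjusted p = 0.15). Without that cachectic library H2-D1 and Tap2 were called (adjusted p = 0.0264 and 0.0491), and without the non-cachectic library in which Tap1 was 9.80 TPM, Tap1 and Tap2 were called (0.0443 and 0.0439). The fitted log2 changes of H2-Aa, H2-Ab1 and Cd74 were slightly below 0, while their mean TPM was higher in the cachectic libraries (H2-Aa 19.8 against 13.4 TPM), and none was called. H2-Aa was 4.51, 22.3, 1.67, 10.3 and 60.5 TPM against 14.9, 8.13, 9.87, 22.7 and 11.2 TPM, so the cachectic libraries held both the lowest and the highest values (log2 fold change -0.19 ± 0.69, limma, adjusted p = 0.868). Of 11957 genes tested in soleus 17.5% were called higher and 25.1% in either direction (15.2% and 28.0% with median-ratio scaling), and 14.6% had groups that did not overlap with the cachectic libraries higher, against 0 of the 9 members tested. Of the related genes, 1 of 13 other class I heavy chains (H2-T10, 0.56 ± 0.16) and 1 of 11 peptide supply genes (Psmb10, 0.70 ± 0.23) were called, both higher. Of 8 other class II genes Lgmn, a protease, was higher (0.66 ± 0.12) and Ifi30, a reductase, was lower (-0.57 ± 0.17). Of 14 regulators Irf2 was higher (0.25 ± 0.08), and Jak2 (-0.49 ± 0.10) and Ifngr2 (-0.26 ± 0.08), which take part in interferon-gamma signalling, were lower. None of 9 interferon-gamma targets was called by limma, and 1 had an unadjusted p under 0.05. Of 9 macrophage markers Cd68 (1.99 ± 0.52) and Cd14 (1.16 ± 0.26) were higher, and of 5 endothelial markers Tek was higher (0.35 ± 0.09) and Kdr lower (-0.59 ± 0.14). Summed macrophage markers were 90.3 to 430 TPM in cachectic and 118 to 160 TPM in non-cachectic soleus, and their part in the levels of the members was not tested.

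In mock diaphragm the cachectic and non-cachectic melanoma could not be separated by any member. H2-K1 was 85.3 to 310 TPM with a median of 163 TPM in the 10 cachectic and 54.9 to 257 TPM with a median of 120 TPM in the 9 non-cachectic libraries, which overlapped over most of their range. Its log2 fold change was 0.41 ± 0.42 (limma, adjusted p = 0.451). The 10 members lay between 0.02 ± 0.45 (Nlrc5) and 0.47 ± 0.39 (H2-D1), with adjusted p of 0.345 to 0.979, and 0 of 10 had an unadjusted p under 0.05, while 30.9% of 13426 genes were called higher and 33.5% in either direction. The median over the members, 0.24, was close to that over all genes, 0.20. With median-ratio scaling the split of all genes called was 7.39% higher and 15.8% in either direction, and the members stood at -0.16 to 0.24. With the library state as a term in the fit all 10 members turned below 0, at -0.84 to -0.29, with none called by limma and 2 of 10 at an unadjusted p under 0.05 (28.6% of all genes), and among high-state libraries alone they were at -0.18 to 0.19. The state term takes the state effect as equal in every diaphragm group. Yet mean H2-K1 in high- and low-state libraries was 161 and 116 TPM in non-cachectic mock diaphragm. With rFibcd1 it was 387 and 77.7 TPM (cachectic) and 277 and 57.0 TPM (non-cachectic). Genes next to the members that were called included the chaperones Calr (0.48 ± 0.16) and Canx (0.32 ± 0.10), Lgmn (0.94 ± 0.18), Ifngr1 (0.63 ± 0.15) and the heavy chain-like Mr1 (0.29 ± 0.11). Nfyb (0.30 ± 0.11) and Rfxank (0.25 ± 0.09), subunits of the factors that bind the Y and X boxes, were among 4 of 16 regulators called, and the dendritic cell marker Clec10a (1.62 ± 0.33) and 3 of 5 endothelial markers, Pecam1 (0.50 ± 0.10), Tek (0.38 ± 0.10) and Emcn (0.33 ± 0.12), were called too. Not all genes of these lists were higher. The dendritic cell marker Clec9a and the endothelial marker Kdr were below 0, and neither was called. Of 12 interferon-gamma targets tested none was called by limma and none had an unadjusted p under 0.05, and their median was -0.47. With state as a term 12.3% of all genes were called higher and 3.03% lower, and 3 of the 12 were called lower with the cachectic melanoma: Iigp1 (-2.003 ± 0.69), Gbp3 (-1.51 ± 0.50) and Gbp7 (-1.41 ± 0.44; limma, adjusted p = 0.0421, 0.0349 and 0.0278). Of the related genes just named, Lgmn (0.63 ± 0.16), Ifngr1 (0.38 ± 0.13), Clec10a (1.14 ± 0.32), Pecam1 (0.40 ± 0.11) and Tek (0.31 ± 0.10) were still called with that term, and Calr, Canx, Mr1, Nfyb, Rfxank and Emcn were not. H2-T24 (-0.86 ± 0.30), Ifngr2 (-0.39 ± 0.10), Kdr (-0.53 ± 0.15) and the dendritic cell marker Clec9a (-0.73 ± 0.25) were then called lower. Macrophage markers were higher in 5 of 11 without the state term, among them Cd163 (1.56 ± 0.28) and C1qb (1.29 ± 0.33), and their sum was 418 to 1717 TPM in cachectic and 240 to 823 TPM in non-cachectic libraries. With the term 2 of 11 were called, Cd163 (1.15 ± 0.27) and Mrc1 (0.69 ± 0.22).

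With rFibcd1 the melanoma difference in diaphragm was larger on average, and still no member was called. H2-K1 was 51.1 to 835 TPM with a median of 270 TPM in cachectic and 50.3 to 466 TPM with a median of 167 TPM in non-cachectic rFibcd1 libraries. The groups overlapped, with a log2 fold change of 0.87 ± 0.41 (limma, p = 0.0385, adjusted p = 0.172). The members ranged from 0.45 ± 0.47 (Ciita) to 0.94 ± 0.47 (Tap1), with a median of 0.69 against 0.08 over all genes, and 3 of 10 (H2-K1, Tap2 and Nlrc5) had an unadjusted p under 0.05, as had 25.0% of all genes. Of all genes 7.14% were called higher and 9.11% in either direction (4.23% and 8.97% with median-ratio scaling). With state as a term the members were at 0.16 to 0.63 and none was called by limma or had an unadjusted p under 0.05. Without the cachectic rFibcd1 library with the lowest H2-K1, 51.1 TPM, H2-K1 and Tap2 were called (adjusted p = 0.0464 and 0.0447). Of the related genes Psme2 (0.68 ± 0.21), of 11 peptide supply genes, and Lgmn (0.70 ± 0.18), of 10 other class II genes, were called higher. None of 13 other class I heavy chains, 16 regulators or 12 interferon-gamma targets was called by limma, and 4, 3 and 3 of them had an unadjusted p under 0.05. The macrophage markers Fcgr1 (1.12 ± 0.36) and C1qb (1.03 ± 0.32), of 11, and the dendritic cell marker Clec10a (1.01 ± 0.32), of 8, were higher, and the endothelial marker Kdr was lower (-0.51 ± 0.15). Summed macrophage markers were 335 to 3813 TPM in cachectic and 331 to 1812 TPM in non-cachectic rFibcd1 libraries, and their part in the levels of the members was not tested.

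**Figure D3:**
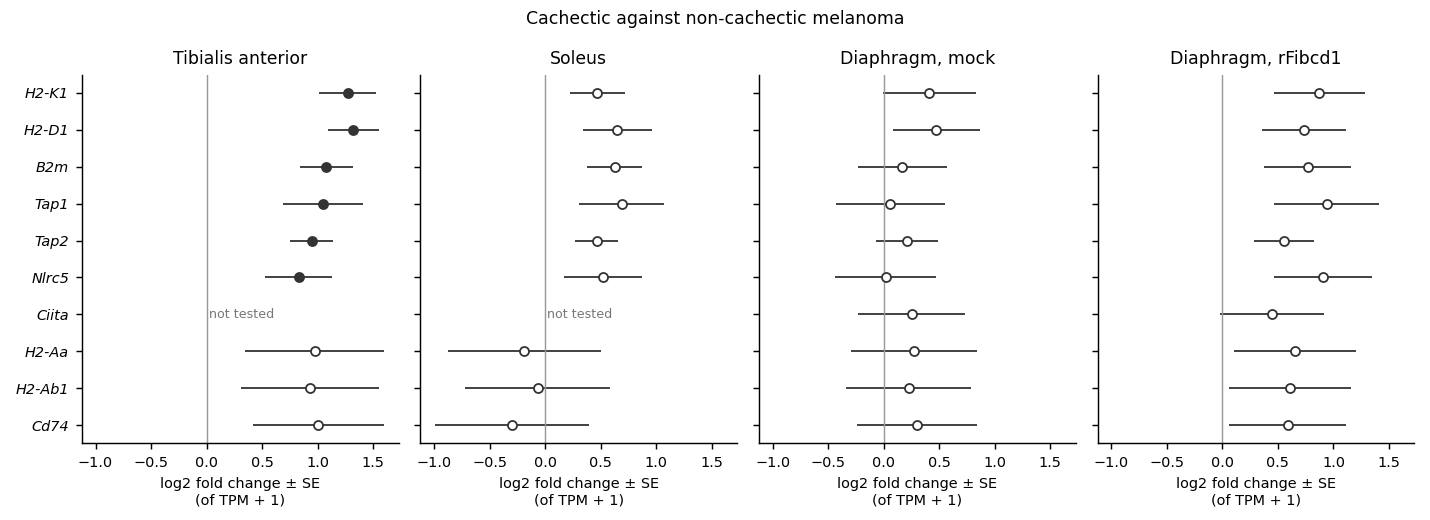
Cachectic against non-cachectic melanoma for each member, as log2 fold change of TPM + 1 with its SE (bars), in tibialis anterior, soleus, mock diaphragm and rFibcd1 diaphragm. Filled points were called by limma (adjusted p under 0.05). The 6 class I members are called in tibialis anterior, at 0.83 to 1.32, and no member is called in the other panels.

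The difference of the melanoma effect between muscles was tested directly, with mock diaphragms. No member was called in any of the 3 contrasts by limma without a replicate block. With the column number as a replicate block Tap2 was called for diaphragm minus tibialis anterior (-0.72 ± 0.22, adjusted p = 0.0219), while 17.2% of all genes were. The effect in diaphragm minus that in tibialis anterior lay between -0.99 and -0.01, was -0.74 ± 0.28 for Tap2 (adjusted p = 0.101), and 3 of 10 members had an unadjusted p under 0.05, as had 24.4% of all genes. Diaphragm minus soleus gave -0.63 to 0.60 with 0 of 10 at an unadjusted p under 0.05. Tibialis anterior minus soleus gave 0.22 to 1.31, also with 0 of 10, so the call of class I in tibialis anterior and its lack in soleus were not shown to differ. With the block 2 of 10 had an unadjusted p under 0.05 for this contrast, H2-K1 (0.80 ± 0.36) and Tap2 (0.48 ± 0.23), beside 50.6% of all genes, and none was called by limma (lowest adjusted p = 0.071), while 41.2% of all genes were. In these contrasts 5.04%, 2.52% and 20.4% of 13501 genes were called. Among related genes, Psme2, a proteasome activator subunit (-0.71 ± 0.20), Irf1 (-1.14 ± 0.34), Rfx5 (-0.65 ± 0.18) and Ifngr2 (-0.53 ± 0.15) had a smaller melanoma effect in diaphragm than in tibialis anterior. So had Tek (-0.58 ± 0.14), while Ighm (3.62 ± 1.10) and the muscle marker Acta1 (1.21 ± 0.24) were called the other way. For tibialis anterior minus soleus, genes called higher included Ifi30 (1.73 ± 0.59), C1qa (1.61 ± 0.53), Csf1r (1.60 ± 0.43), Rfx5 (0.75 ± 0.21) and Tapbp (0.66 ± 0.24). Acta1 was called lower there (-1.31 ± 0.27).

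The last question was whether rFibcd1 went with other levels in diaphragm. These comparisons and those of the melanomas share libraries, so each is given by its own values. In mice with the cachectic melanoma all 10 members were higher on average with rFibcd1 than with mock, by 1.34-fold (H2-D1) to 1.86-fold (Tap1), and none was called by limma. H2-K1 went from a median of 163 TPM (85.3 to 310) to 270 TPM (51.1 to 835), B2m from 748 TPM (400 to 1368) to 1459 TPM (301 to 3644), and H2-Aa from 96.1 TPM (27.6 to 387) to 253 TPM (26.8 to 806). For each of these genes the rFibcd1 libraries held both the lowest and the highest value. The log2 fold changes were 0.69 ± 0.41 for H2-K1, 0.73 ± 0.39 for B2m, 0.89 ± 0.47 for Tap1, 0.89 ± 0.44 for Nlrc5 and 0.76 ± 0.55 for H2-Aa (limma, adjusted p of 0.476 to 0.725 over the 10 members). Of the 10, 0 had an unadjusted p under 0.05, and their median was 0.74 against 0.03 over all genes. Only 0.0447% of 13426 genes were called in this comparison. Of 12 interferon-gamma targets tested none was called, and 11 had an unadjusted p under 0.05 beside 10.5% of all genes, with a median of 1.19.

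The spread of the cachectic rFibcd1 group followed the library state. H2-K1 was 210 to 835 TPM in its 8 high-state libraries and 51.1 and 104 TPM in its 2 low-state ones. H2-Aa was 84.9 to 806 TPM against 26.8 and 27.7 TPM, and Tap1 was 7.50 to 85.3 TPM against 1.76 and 3.01 TPM. Summed macrophage markers were 554 to 3813 TPM in the high-state and 335 and 472 TPM in the low-state libraries, and summed interferon-gamma targets were 143 to 3285 TPM and 40.1 and 49.9 TPM. In non-cachectic rFibcd1 diaphragm H2-K1 was 120 to 466 TPM in 6 high-state and 50.3 to 62.7 TPM in 4 low-state libraries, again without overlap. In non-cachectic mock diaphragm the states overlapped, at 107 to 257 TPM (n = 3) and 54.9 to 193 TPM (n = 6). Over all diaphragms H2-K1 was 103 to 835 TPM in the high state (n = 26) and 50.3 to 193 TPM in the low state (n = 13). The states were set by Pcna-ps2 alone, the members were not used, and no test of the states was made.

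Among high-state libraries alone, 8 cachectic rFibcd1 against 9 cachectic mock, the difference was larger and 5 class I members were called by limma. They were H2-K1 (1.04 ± 0.28, 2.06-fold, adjusted p = 0.0359), B2m (1.08 ± 0.27, 2.12-fold, adjusted p = 0.0282), Tap1 (1.38 ± 0.37, 2.61-fold, adjusted p = 0.0355), Tap2 (0.76 ± 0.22, 1.70-fold, adjusted p = 0.0446) and Nlrc5 (1.31 ± 0.34, 2.49-fold, adjusted p = 0.0316). H2-D1 (0.74 ± 0.25), Ciita (1.06 ± 0.44), H2-Aa (1.32 ± 0.44), H2-Ab1 (1.36 ± 0.44) and Cd74 (1.27 ± 0.44) had adjusted p of 0.0624 to 0.126 in this limma fit, and all 10 had an unadjusted p under 0.05 beside 26.8% of all genes. Of 14159 genes 4.76% were called higher and 5.57% in either direction. The count of members called depended on single libraries: over 26 refits without 1 high-state diaphragm library each, it ran from 0 to 10. It was 0 without any 1 of the cachectic rFibcd1 libraries with H2-K1 at 835, 348 and 444 TPM or the cachectic mock library at 103 TPM, and 10 without the rFibcd1 library at 210 TPM or the mock library at 310 TPM. In the 17 refits without a library of this contrast the log2 fold changes were 0.58 to 1.59, and in the other 9 they cannot move. The number of all genes called in these refits ran from 29 to 3003, and the counts of related genes were not recomputed in them. With median-ratio scaling of the high-state libraries 2 members were called, B2m (0.96 ± 0.26, adjusted p = 0.0462) and Nlrc5 (1.21 ± 0.33, adjusted p = 0.0499), beside 1.05% of all genes higher and 2.61% in either direction. With all 39 libraries and the state as a term in the fit, none was called by limma, 9 of 10 had an unadjusted p under 0.05 beside 16.9% of all genes, and 0.134% of all genes were called. The refits and the scaling of the high-state libraries were chosen after the data had been seen.

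**Figure D4:**
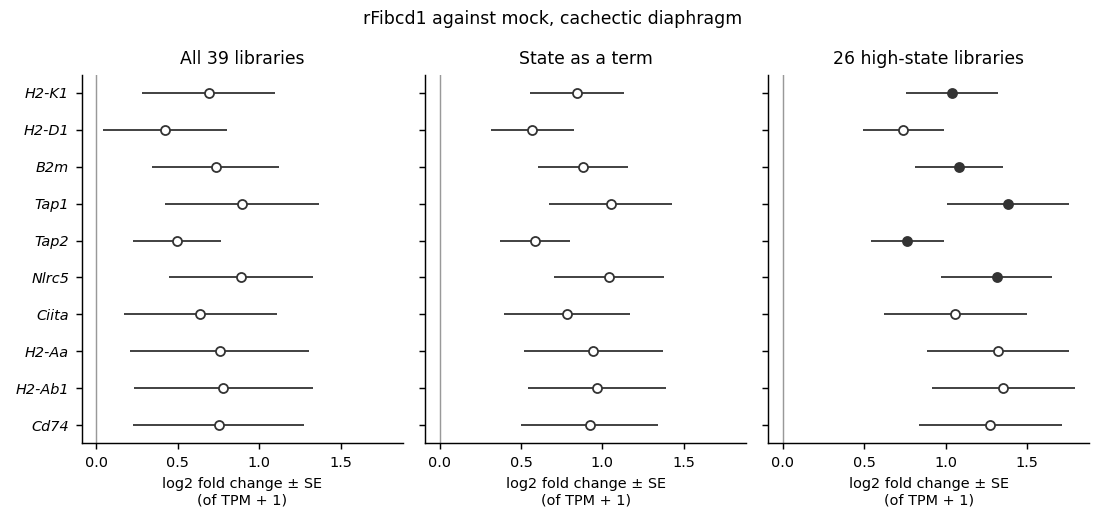
rFibcd1 against mock in cachectic diaphragm for each member, as log2 fold change of TPM + 1 with its SE (bars), from all 39 diaphragm libraries, from the same libraries with state as a term, and from the 26 high-state libraries. Filled points were called by limma (adjusted p under 0.05). Points shift from 0.42 to 0.89 in the left panel to 0.74 to 1.38 in the right panel, where 5 class I members are filled.

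In the same fit of all 26 high-state libraries related genes were called as follows. Of 12 interferon-gamma targets tested 9 were higher with rFibcd1, led by the GTPases Iigp1 (2.24 ± 0.59), Igtp (2.22 ± 0.63) and Irgm2 (1.88 ± 0.51). The immunoproteasome subunits Psmb9 (1.36 ± 0.37) and Psmb8 (1.21 ± 0.33) and the activator subunit Psme2 (0.82 ± 0.20) were among 5 of 11 peptide supply genes called higher. H2-Q6 (1.20 ± 0.34), H2-T23 (1.08 ± 0.30) and H2-T24 (0.92 ± 0.25) were among 5 of 14 other class I heavy chains. None of 11 other class II genes, 11 macrophage markers, 8 B cell markers, 10 T cell markers or 6 natural killer cell markers was called by limma. All 10 T cell and all 6 natural killer cell markers tested had an unadjusted p under 0.05, with medians of 0.91 and 0.94. Summed T cell markers were 3.30 to 108 TPM in the 8 rFibcd1 and 2.19 to 19.2 TPM in the 9 mock high-state libraries, and summed natural killer cell markers were 3.68 to 151 TPM and 1.13 to 11.9 TPM. The part of these cells in the members' levels was not tested.

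With the non-cachectic melanoma the comparison of rFibcd1 and mock gave log2 fold changes of 0.00 ± 0.45 (Nlrc5) to 0.46 ± 0.54 (Cd74), with a median of 0.19 against 0.15 over all genes. With state as a term they were at -0.40 to 0.06, and among high-state libraries alone at 0.35 to 1.06, with none called in either. H2-K1 was 54.9 to 257 TPM (median 120 TPM) in mock and 50.3 to 466 TPM (median 167 TPM) in rFibcd1 libraries, which overlapped. No member was called by limma (adjusted p of 0.543 to 0.996, 0 of 10 at an unadjusted p under 0.05), and 0.417% of all genes were. That share depended on the fit: limma on only these 2 groups called 2453 of 12541 genes, and still 0 of 10 members (lowest adjusted p 0.387). The interaction, the melanoma effect with rFibcd1 minus that with mock, was 0.20 to 0.89 over the 10 members with 0 called by limma (adjusted p of 0.688 to 0.946, 0 of 10 at an unadjusted p under 0.05), beside 0.0223% of all genes. With state as a term it was 0.67 to 1.45, with 0 called by limma and 6 of 10 at an unadjusted p under 0.05, beside 5.92% of all genes. Among high-state libraries alone it was 0.08 to 0.83, with 0 called by limma. There 0 of 10 had an unadjusted p under 0.05, beside 461 of 14159 genes. So an effect of rFibcd1 that differs between the melanomas was not shown for any member.

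Correlations over libraries were computed for the 8 members with a mean of at least 5 TPM, which leaves out Nlrc5 and Ciita. After the group mean was subtracted, the log2 level of H2-K1 correlated over 59 libraries with that of B2m (Pearson r = 0.978), Tap2 (0.948), Tap1 (0.942) and H2-D1 (0.933), and less with H2-Aa (0.812). H2-Aa correlated with H2-Ab1 (0.995) and Cd74 (0.991). Among 8763 genes with a mean of at least 5 TPM, those outside the members most like H2-K1 were H2-T22 (0.971), Psmb8 (0.960), H2-Q6 (0.955), H2-T23 (0.945) and H2-M3 (0.932). Those most like H2-Aa were H2-Eb1 (0.993), H2-DMb1 (0.975), H2-Ea-ps (0.934), H2-DMa (0.918) and Cd52 (0.896), a surface protein of leukocytes. The points share their muscle, library state and the composition of each library, so these values are descriptions. After state was also subtracted, H2-K1 and H2-Aa correlated at 0.675, and H2-Aa and H2-Ab1 at 0.992.

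**Figure D5:**
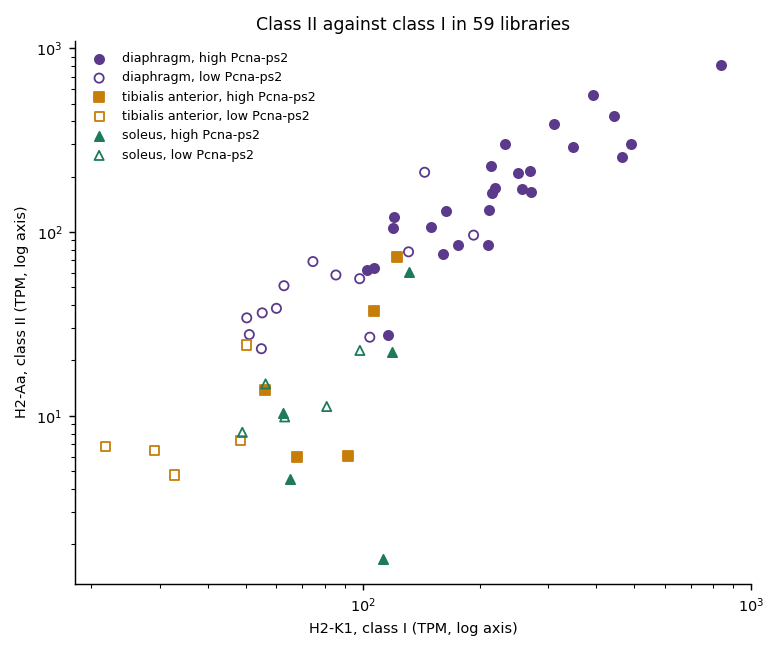
H2-Aa against H2-K1 (TPM, both log axes) in 59 libraries: purple circles are diaphragm, orange squares tibialis anterior and green triangles soleus, filled for high and open for low Pcna-ps2. H2-K1 reaches from 50.3 to 835 TPM in diaphragm, and most limb libraries have less H2-Aa than diaphragms of like H2-K1.

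The ratio of B2m to the summed heavy chains H2-K1 and H2-D1 stayed between 1.29 and 2.52 in all 59 libraries. It was 1.59 ± 0.14 (SD, n = 10; 1.45 to 1.85) in cachectic and 1.93 ± 0.12 (SD, n = 9; 1.77 to 2.13) in non-cachectic mock diaphragm. In tibialis anterior it was 1.51 ± 0.12 (SD, n = 5; 1.32 to 1.64) and 1.78 ± 0.07 (SD, n = 5; 1.68 to 1.84), without overlap. In soleus it was 1.94 ± 0.47 (SD, n = 5) and 1.85 ± 0.11 (SD, n = 5), and in rFibcd1 diaphragm 1.84 ± 0.20 (SD, n = 10) and 1.86 ± 0.17 (SD, n = 10). These ratios were computed after the levels had been seen and were not tested.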

How the data were processed

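RNA-seq was done on 59 muscles of 8 groups. The deposited values are TPM per gene, which the authors made from 100-bp paired-end reads with CLC Genomics Workbench 12.0.1 against GRCm38, with the annotation not given in the sources used here. Every column summed to 1000000, so depth is unknown and no counting interval can be given. Columns name a group but not a labelled replicate. Values were analysed as log2(TPM + 1), which understates changes of low genes, with limma 3.58.1 in R 4.3.3 (empirical Bayes with a trend). A gene was tested if it reached 1 TPM in as many samples as the smallest group has, separately in diaphragm, tibialis anterior, soleus and across muscles, and was called at a Benjamini-Hochberg adjusted p under 0.05 over all genes tested. This replaced the rank tests of the study, which were run as an alternative. The fits were tested on simulated data. P-values measure only the spread between these samples. Members and lists were chosen with earlier results of these data known, and all 10 members are named together with up to 3 genes of each list with the largest changes among those called, plus a few added after their values were seen. Of 128 listed genes 125 were in the table (not H2-L, Gbp6 and Itgam). Kit and sequencer differ between the labels and the methods. Promoters and positions came from RefSeq (GRCm38.p6) and GENCODE M21.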

Additional observations from a re-analysis of the deposited data

Results flagged for a closer look

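Over the 8 groups of 5, 9 or 10 libraries, 6 of 80 combinations of gene and group had a highest library that stood apart from the rest by more than Dixon's limit, and chance alone flags about 1 in 20 groups. All 6 lay in non-cachectic limb muscles. In non-cachectic tibialis anterior the highest library had Tap1 at 4.50 TPM (the next at 1.68 TPM, gap over range 0.712), H2-Aa at 24.3 TPM (next 7.37 TPM, 0.747), H2-Ab1 at 20.4 TPM (next 6.09 TPM, 0.784) and Cd74 at 64.8 TPM (next 21.2 TPM, 0.825). In non-cachectic soleus the highest library had Tap1 at 9.80 TPM (next 3.08 TPM, 0.713) and Ciita at 0.560 TPM (next 0.214 TPM, 0.73).

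The libraries that were highest in the 2 limb muscles carried the same column number for 10 of 10 members in the non-cachectic groups and for 4 of 10 in the cachectic groups. Among the non-cachectic mock diaphragms of those numbers the same number was highest for 6 of 10. The labels do not tie a number to a mouse, and this was not tested.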

How the results depend on the processing

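Of 790 member values recomputed under other settings, 0 reversed a call, 23 lost one, 13 gained one, and 39 changed sign without a call in either fit. Without 1 library at a time, 4470 values gave 0 reversals, 18 losses and 12 gains. The cause of these changes was not tested. Median-ratio scaling left 1 member called in tibialis anterior (cachectic against non-cachectic) and 1 in tibialis anterior against soleus. In tibialis anterior the Dunn test and the fit with no filter on low values each called 4 instead of 6. The Dunn test called 0 in diaphragm against soleus and 0 in tibialis anterior against soleus. For rFibcd1 against mock in cachectic diaphragm, high-state libraries alone gave 5 called, the same with median-ratio scaling 2, and refits of them without 1 library 0 to 10 (the last 2 settings chosen after the data had been seen). Leaving out 1 library gave 0 to 2 members called for the melanomas in rFibcd1 diaphragm, 4 to 6 in tibialis anterior and 0 to 2 in soleus. Among muscles it gave 10 to 10 for diaphragm against tibialis anterior, 5 to 10 for diaphragm against soleus and 4 to 5 for tibialis anterior against soleus, and 0 in all other comparisons.

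Column numbers shared between muscles were also fitted as a replicate block, an alternative added after the data had been seen. Deviations of same-numbered libraries correlated at 0.132 to 0.520 between diaphragm and tibialis anterior and 0.184 to 0.539 between tibialis anterior and soleus (10 of 10 over 0.1 in both), and at 0.0104 to 0.527 between diaphragm and soleus (8 of 10). All 10 numbers had the same library state in the 3 muscles. The consensus correlation of libraries with 1 column number was 0.381. The labels do not say what a number marks, and as 2 pairs fell below 0.1 the numbers were not taken as pairing, though these values hint at one. The fits across muscles without the block therefore treat libraries of different muscles as independent, which these correlations may not allow. With the block, 1 member was called for the melanoma effect in diaphragm minus tibialis anterior (Tap2, -0.72 ± 0.22, limma, adjusted p = 0.0219), beside 17.2% of all genes, and 10, 10 and 5 members for the 3 muscle comparisons in the order above, beside 76.9%, 49.9% and 76.1% of all genes.

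Depth is unknown. Groups of 5 limb libraries, the library state and the absence of tumour-free mice limit each comparison.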

Other observations

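In tibialis anterior the sum of B cell markers was 42.6 to 199 TPM in the non-cachectic and 5.02 to 30.2 TPM in the cachectic libraries, without overlap, while H2-Aa averaged 9.95 and 27.2 TPM, a difference that was not called, with overlapping groups. Ighm, the heavy chain of IgM, held most of this sum, with 109 TPM on average in the non-cachectic and 11.5 TPM in the cachectic libraries (-3.21 ± 0.50, limma, adjusted p = 0.000899), and Cd79a stood below 1 TPM on average in every limb group. In non-cachectic soleus the B cell sum was 4.77 to 8.78 TPM, below all 5 non-cachectic tibialis anterior libraries. In diaphragm the B cell sum was 18.9 to 3429 TPM over the 39 libraries.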
